A study of Mus musculus with 12 samples.

Results

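Cyclins and cyclin-dependent kinases (CDKs) were followed in the mouse testis while its first germ cells pass from spermatogonia to spermatids. Membership was set by symbol, and the choice was made with earlier results of these data known. Protein-coding genes named Ccn with a single letter and an optional number, or Cdk with a number only, gave 24 cyclins and 18 kinases, which are 42 of the 37675 genes listed in each file and 42 of 22380 protein-coding genes. Whole testes came from C57BL/6NHsd mice, an inbred laboratory strain, at postnatal day (PND) 7, 14, 17, 21 and 28, with 2 mice at each of the 5 ages and no treatment. RNA depleted of ribosomal RNA was read on the SOLiD 4, and each PND 7 mouse was split over 2 barcodes, so that 12 libraries stand for 10 mice. A whole testis holds germ cells of several stages together with Sertoli, Leydig, peritubular, blood and vessel cells. In such bulk samples, fewer cells of a type and less RNA per cell cannot be told apart.

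A CDK is a protein kinase that typically becomes active by binding a cyclin, and the cell cycle is driven by cyclins that appear and are destroyed in turn. The D-type cyclins carry cells out of G1 with Cdk4 and Cdk6, the E- and A-type cyclins drive DNA replication with Cdk2, and the B-type cyclins bring on division with Cdk1. Other family members act in transcription and splicing. In the testis, spermatogonia divide by mitosis, spermatocytes replicate their DNA once and divide by meiosis, and spermatids do not divide.

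The mice held from 3994026 to 13559548 counts, with the lowest totals in PND 17 mouse 2 and in PND 21 mouse 1 (4018007). The 6 spermatocyte markers summed to 165 and 181 CPM (counts scaled to a common library total with TMM factors) at PND 7, to between 1492 and 2504 at PND 14, and to 7959 and 8287 at PND 28. The 4 elongating spermatid markers (Prm1, Prm2, Tnp1 and Tnp2) summed to 4675 and 5658 CPM at PND 28. Against the pattern of age, they summed to 174.6 CPM in PND 14 mouse 1 and to 6.84 in PND 14 mouse 2, so the counts of calls between PND 7 and PND 14 are also given without mouse 1. The Sertoli list summed to between 1676 and 2013 CPM at PND 7 and to 419 and 568 at PND 28, and all 7 of its genes in the files were tested. Of the remaining lists, 3 of 5 Leydig markers were called higher at PND 28 than at PND 7 by the rule below, beside 32.2% of all genes. Called lower were 2 of 3 peritubular, 2 of 3 endothelial and 2 of 2 tested red blood cell markers, beside 23.4% of all genes. For macrophages, 0 of 4 markers were called. The endothelial count was smaller without PND 28 mouse 1. The red blood cell count was smaller without either PND 28 mouse or PND 7 mouse 2. A test over all ages, described below, called 0 of the 2 red blood cell markers.

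Among the 42 genes, 41 had enough counts to be tested. Cdk15 was not tested, because it had 0 counts in the 4 mice of PND 7 and 14 and 14 counts in the other 6 mice together. Genes were called from the counts with edgeR's quasi-likelihood test at a p under 0.05, adjusted over the 16860 genes of the table that could be tested, and a fold change of at least 2. From PND 7 to PND 14, 9 of the 41 were called, which is 22.0% beside 18.9% of all genes. They comprised 5 that rose (Ccna1, Ccnb2, Ccni, Cdk1 and Cdk2) beside 13.5% of all genes, and 4 that fell (Ccnd2, Ccnl1, Ccnl2 and Cdk14) beside 5.43%. Without PND 14 mouse 1 the count was 11, beside 16.3% of all genes, and none of the 9 lost its call. In that fit the log2 fold changes of the 5 that rose ran from 1.11 (Cdk2) to 4.98 (Ccna1), with Ccni at 1.53, and those of the 4 that fell were -1.32 (Ccnl2), -1.49 (Cdk14), -1.50 (Ccnl1) and -1.99 (Ccnd2). From PND 14 to PND 17, 0 of the 41 and 0.0% of all genes were called by edgeR and 0 of the 41 by DESeq2, while 3 of the 41 and 769 of all genes had an unadjusted p under 0.05.

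From PND 17 to PND 21, 4 cyclins were called and no kinase, which is 9.76% of the 41 beside 10.3% of all genes. Ccna1 and Ccnk rose beside 9.29% of all genes, and Ccna2 and Ccnd1 fell beside 1.05%. The calls of Ccnk, Ccna2 and Ccnd1 each depended on single mice. The count was 1 without PND 21 mouse 1 or either PND 17 mouse, and 2 without either PND 28 mouse. RLE scaling gave 3 that rose and 0 that fell. From PND 21 to PND 28, Ccnd3 alone was called, which is 2.44% beside 7.66% in either direction and 7.37% that rose, and its call was lost in 6 of the 10 fits that left out 1 mouse.

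Over the whole span from PND 7 to PND 28, 16 of the 41 were called, which is 39.0% beside 55.6% of all genes. Ccna1, Ccnb2, Cdk20, Ccnk, Ccni, Cdk1, Ccnd3 and Cdk19 rose (8 genes, 19.5% beside 32.2%). Ccnd2, Ccnt2, Ccnj, Ccng1, Ccnd1, Ccna2, Ccnl2 and Ccng2 fell (8 genes, 19.5% beside 23.4%), and all 8 are cyclins. The calls comprised 13 of 24 cyclins and 3 of 17 kinases, and no test compared these shares. The median log2 fold change of the 41 was -0.15 beside 0.10 over all genes. Scaling by library totals in place of TMM moved the median of all genes by -0.32 and gave 6 that rose and 14 that fell, and RLE scaling moved it by 0.165 and gave 9 and 7. No called change reversed under either. An F test over all ages called 26 of the 41, which is 63.4% beside 57.5%.

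**Figure D1:**
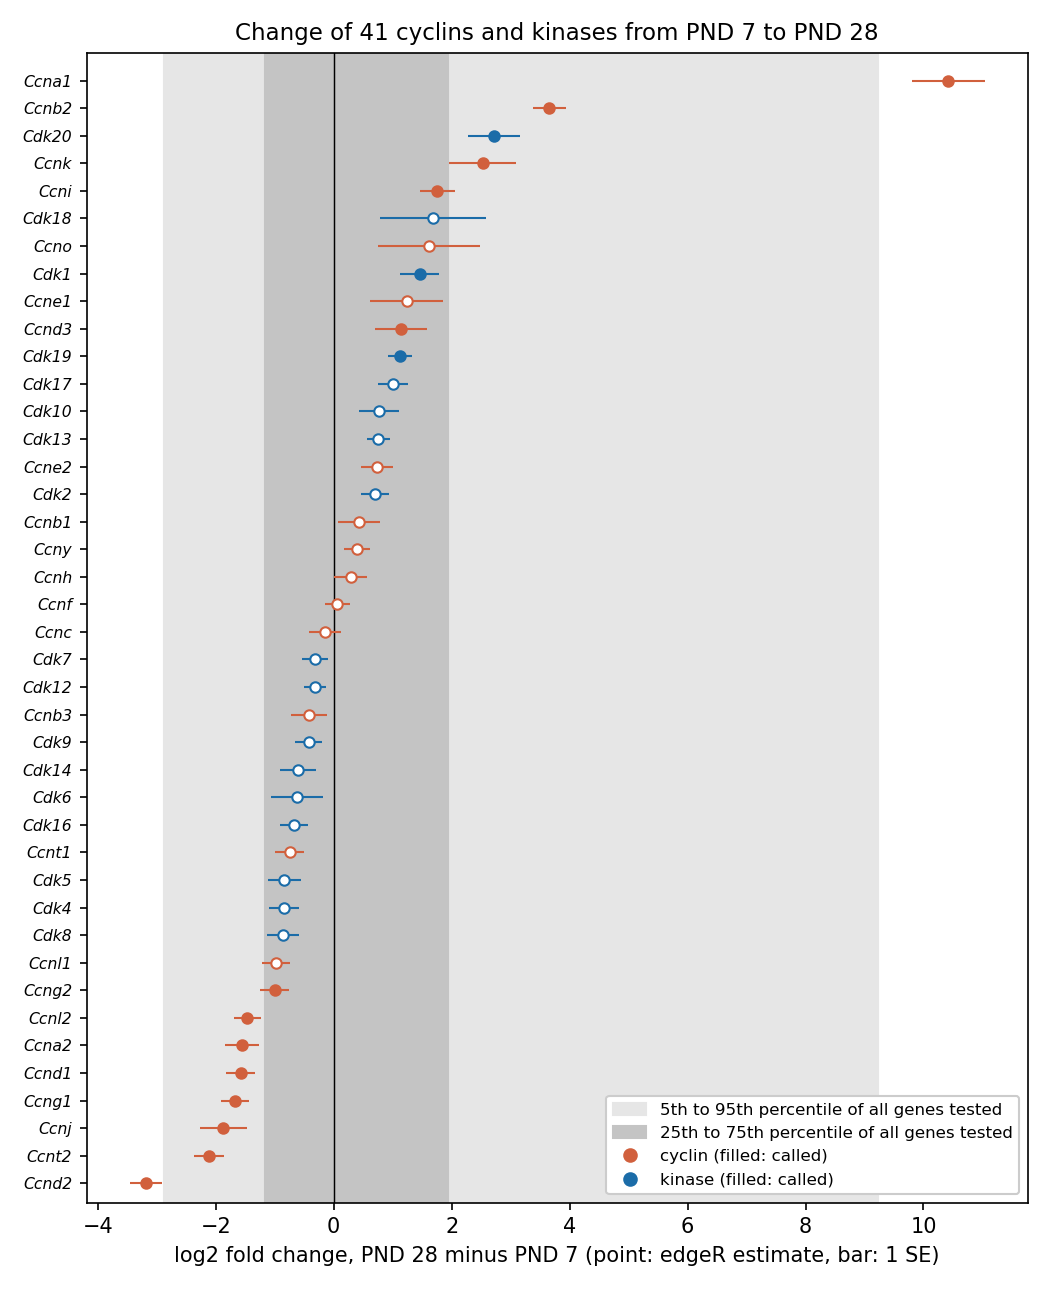
Fitted log2 fold change from PND 7 to PND 28 (x axis, PND 28 minus PND 7, bar of 1 SE) for the 41 genes tested, with cyclins in orange, kinases in blue, called genes filled, and grey bands for the percentiles of all 16860 genes. Ccna1 lies above the 95th percentile of all genes (9.23) and Ccnd2 below the 5th (-2.88). The other called genes lie between them, and the point of Ccna1 depends on the prior count because PND 7 held only 2 counts.

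Promoters are shown for the genes that rose most and fell most over this span and have an entry among RefSeq promoters (GRCm38.p6, the 300 bases from 250 before to 50 after the gene start, given in the sense of the gene). Of the 42 genes, 33 matched an entry, with 35 promoters. The letters searched on both strands were CCAAT (the CCAAT box), TTTGAA (the cell cycle homology region, CHR), AACNG (the MYB core) and TGACGTCA (the cAMP response element, CRE). Ccna1 (chr3:55055006-55055305, minus strand) and Ccnb2 (chr9:70421505-70421804, minus strand) stand for the rises, and Ccnt2 (chr1:127773914-127774213, plus strand) and Ccnj (chr19:40831029-40831328, plus strand) for the falls. Capitals mark matches to the CCAAT box (CCAAT, or ATTGG where it lies on the other strand) and to the CHR.
Ccna1: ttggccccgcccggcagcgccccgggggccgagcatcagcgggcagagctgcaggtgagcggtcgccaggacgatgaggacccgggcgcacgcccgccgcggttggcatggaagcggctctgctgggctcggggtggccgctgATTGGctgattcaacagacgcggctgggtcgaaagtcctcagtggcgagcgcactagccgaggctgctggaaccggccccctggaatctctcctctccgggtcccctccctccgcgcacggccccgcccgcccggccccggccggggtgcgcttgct
Ccnb2: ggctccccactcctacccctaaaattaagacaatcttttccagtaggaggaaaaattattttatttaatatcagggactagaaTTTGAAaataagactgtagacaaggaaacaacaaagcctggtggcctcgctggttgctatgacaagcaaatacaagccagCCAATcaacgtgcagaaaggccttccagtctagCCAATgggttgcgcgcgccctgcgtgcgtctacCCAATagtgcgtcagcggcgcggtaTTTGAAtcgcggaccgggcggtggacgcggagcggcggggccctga
Ccnt2: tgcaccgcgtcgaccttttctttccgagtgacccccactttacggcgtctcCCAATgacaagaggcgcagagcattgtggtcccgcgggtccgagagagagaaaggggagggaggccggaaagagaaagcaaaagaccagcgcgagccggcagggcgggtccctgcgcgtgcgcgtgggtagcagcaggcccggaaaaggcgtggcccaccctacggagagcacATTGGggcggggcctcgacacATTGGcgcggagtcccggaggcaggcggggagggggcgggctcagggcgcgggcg
Ccnj: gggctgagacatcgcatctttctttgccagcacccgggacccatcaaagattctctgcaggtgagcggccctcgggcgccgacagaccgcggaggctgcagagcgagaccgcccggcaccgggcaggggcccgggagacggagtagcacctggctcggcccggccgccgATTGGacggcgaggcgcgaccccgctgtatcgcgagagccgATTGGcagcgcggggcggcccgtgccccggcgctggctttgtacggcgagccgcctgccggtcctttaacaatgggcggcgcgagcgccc

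The Ccnb2 promoter held 3 CCAAT boxes, at bases 164, 197 and 230 of the window, and 2 CHR matches, at bases 84 and 255, where the gene starts after base 250. The Ccna1 promoter held 1 CCAAT box, at base 144, no CHR match and 3 MYB cores. Ccnt2 held 3 CCAAT boxes and Ccnj held 2, so that the box was present in all 4. Among all 32851 promoters, 37.4% held a CCAAT box, 17.9% a CHR match, 80.3% a MYB core and 1.79% a CRE. Among the 35 promoters of the cyclins and kinases, the shares were 48.6%, 14.3%, 71.4% and 2.86%. The 5 genes with a CHR match were Ccnb2, Ccnf, Ccni, Cdk1 and Cdk16. These matches describe letters in the windows only.

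Cyclin A1 (Ccna1), the germ cell form of cyclin A that male meiosis needs, had the largest rise. Its gene lies on chr3:54849391-54858977 of mm9, on the minus strand, with 9 exons. Its RPKM (reads divided by exon length and by the reads of the library) was 0.115 and 0 at PND 7, 2.84 and 2.94 at PND 14, 8.02 and 3.45 at PND 17, 74.5 and 49.8 at PND 21, and 109 and 85.1 at PND 28. The ages did not overlap, and the step between PND 17 and PND 21 separated the low mice from the high. In counts, the PND 7 mice held 2 and 0, the PND 14 mice 34 and 32, and the PND 28 mice 1481 and 675. In pooled CPM, PND 28 was 1610 times PND 7 (95% counting interval 445 to 13310), and PND 14 was 34.5 times PND 7 (9.17 to 290.5). Both PND 7 counts came from mouse 1, so the size of these rises rests on that mouse. The fitted log2 fold change was 10.4 for PND 28 against PND 7, and leaving out PND 7 mouse 1 gave 13.3 and leaving out PND 7 mouse 2 gave 9.69. For PND 14 against PND 7 the same values were 4.93, 7.84 and 4.21. The edgeR adjusted p was 9.38e-04 for PND 14 against PND 7 and 5.32e-07 for PND 28 against PND 7, and both calls held without any single mouse. The first was lost under the criteria of the study, which ask for a difference of at least 10 RPKM. From PND 17 to PND 21 the log2 fold change was 3.46 ± 0.38 (SE, adjusted p = 0.00153), and no fit without a single mouse lost the call, though without PND 17 mouse 1 the value was 4.25. The number of its exons with more than 10 reads went from 0 of 9 in every PND 7 library to 8 of 9 in each mouse of PND 21 and 28. PND 14 mouse 1, with its spermatid markers, had 3.74 CPM of Ccna1 beside 4.21 in mouse 2.

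Cyclin A2 (Ccna2), the form used in the S and G2 phases of mitotic cells, moved the other way. Its gene lies on chr3:36463788-36471072, minus strand. The RPKM was 21.1 in both PND 7 mice, 17.6 and 22.7 at PND 14, 16.4 and 18.1 at PND 17, 6.18 and 8.94 at PND 21, and 5.30 and 6.30 at PND 28. The mice of PND 7, 14 and 17 all lay above those of PND 21 and 28. Over the series Ccna2 fell by 1.56 ± 0.28 on the log2 scale (edgeR adjusted p = 6.91e-04), a call that held without any single mouse. The fall from PND 17 to PND 21 (log2 fold change -1.04 ± 0.28, adjusted p = 0.0364) was less firm. It lost its call without either PND 17 mouse (adjusted p = 0.122 and 0.236), without PND 21 mouse 1 (0.258) and without either PND 28 mouse (0.0646 and 0.0644), and also under RLE scaling. Exons of Exosc9 on the opposite strand cover 14.6% of the Ccna2 exons.

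The A-type pair therefore changed order. The log2 ratio of Ccna1 to Ccna2, on RPKM with 0.1 added, was -6.63 and -7.73 at PND 7, -2.59 and -2.91 at PND 14, -1.03 and -2.36 at PND 17, 3.57 and 2.47 at PND 21, and 4.33 and 3.74 at PND 28. Ccna2 was the higher in the 6 mice up to PND 17 and Ccna1 in the 4 mice from PND 21. The mean changed by 11.2 from PND 7 to PND 28, of which the size depends on the value added, since it was 8.23 with 1 RPKM added. The order in each mouse came from RPKM per gene length. Between PND 7 and PND 14, 6 of 6 spermatocyte and 3 of 5 round spermatid markers (Acr, Acrv1 and Spaca3) were called higher. So were 4 of 4 elongating spermatid markers, beside 13.5% of all genes in each case. Without PND 14 mouse 1 the median log2 fold changes of these lists were 5.43, 4.56 and 5.73, in place of 5.17, 4.84 and 10.0. Between PND 17 and PND 21, 5 of 5 round spermatid markers were called higher, beside 9.29% of all genes. Fewer were called without either PND 17 mouse or PND 21 mouse 1. The part of these lists in the exchange was not tested.

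Cyclin B2 (Ccnb2), a partner of Cdk1 at the entry into division, had the highest mean RPKM of the cyclins at PND 14, 17, 21 and 28, although in PND 21 mouse 1 Ccnk was above it (104 beside 78.6 RPKM). Its gene lies on chr9:70255496-70269361, minus strand. The RPKM was 14.2 and 12.4 at PND 7, 42.8 and 60.6 at PND 14, 61.0 and 47.7 at PND 17, 78.6 and 91.0 at PND 21, and 143 and 128 at PND 28. The mice of PND 14 and 17 overlapped, and the other ages stood apart in the order of age. Ccnb2 rose by 1.85 ± 0.27 on the log2 scale from PND 7 to PND 14 (edgeR adjusted p = 8.08e-04) and by 3.66 ± 0.29 from PND 7 to PND 28 (2.24e-06), a 12.6-fold difference. Neither call was lost without any single mouse.

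Cyclin B1 (Ccnb1), the other main partner of Cdk1, had 3.65 and 3.14 RPKM at PND 28, lay between 1.86 and the 3.895 of PND 7 mouse 1 and passed no test (F test over all ages, adjusted p = 0.144). Its level is uncertain, because 6 near copies elsewhere in mm9 cover 94.6% of its transcript at up to 99.2% identity and only unique reads were counted. For Ccnb2, 3 near copies cover 21.2%. The log2 ratio of Ccnb2 to Ccnb1 was 1.84 and 2.34 at PND 7 and 5.26 and 5.30 at PND 28. Cyclin B3 (Ccnb3), a cyclin of meiotic cells, had 3.26 and 4.59 RPKM at PND 7, 7.35 and 5.93 at PND 14, 8.02 and 8.11 at PND 17, 4.31 and 3.67 at PND 21, and 1.84 and 2.94 at PND 28. It passed the F test over all ages (adjusted p = 0.0102) but no comparison of a pair of ages, and its highest values lay at PND 17.

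**Figure D2:**
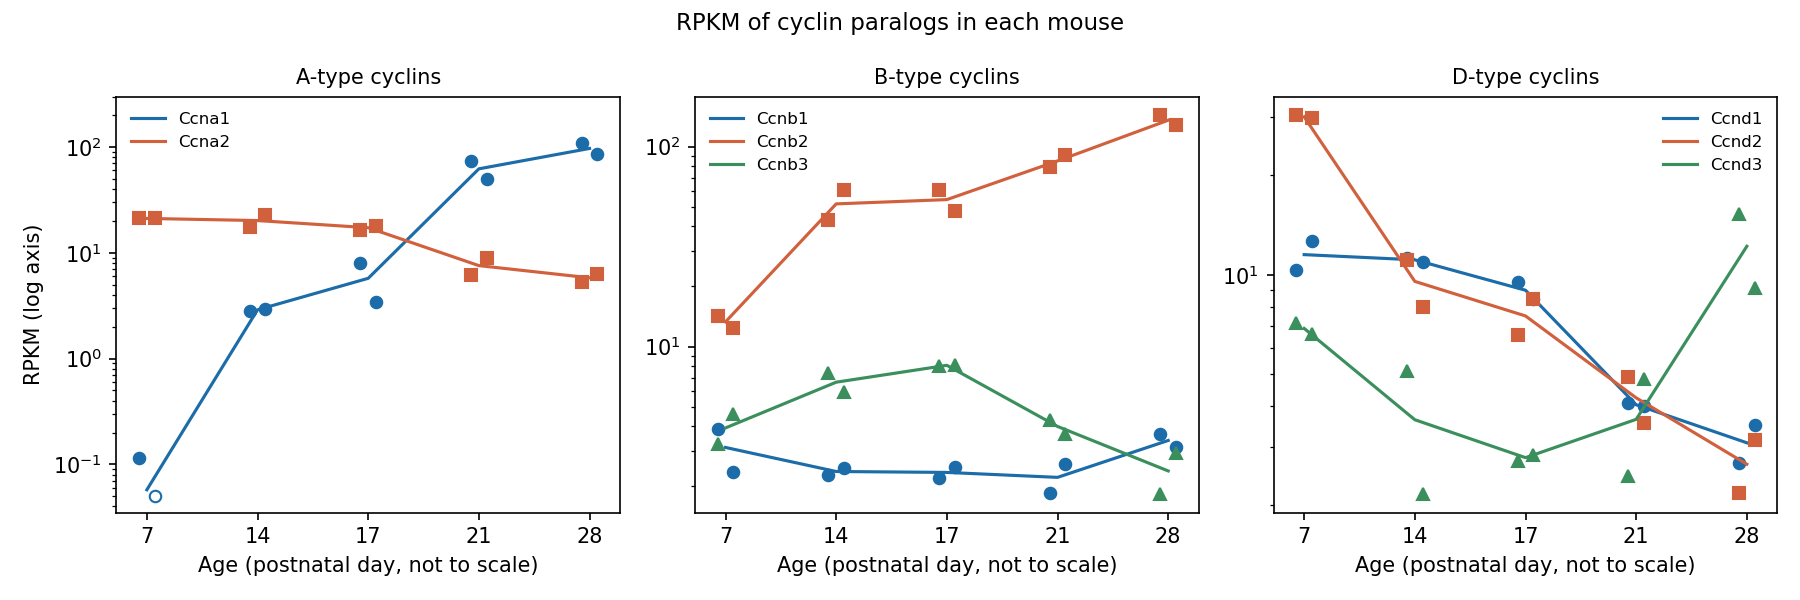
RPKM (log axis) of A-, B- and D-type cyclins by age in postnatal days, with 1 point per mouse and lines through the mean of 2 mice, where the open point marks Ccna1 listed at 0 in PND 7 mouse 2. Ccna1 crosses Ccna2 between PND 17 and PND 21, Ccnb2 lies above Ccnb1 and Ccnb3 at every age, and Ccnd3 has its highest values, 9.11 and 15.3, at PND 28.

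Cyclin D2 (Ccnd2), a D-type cyclin of dividing spermatogonia and Sertoli cells, fell most. Its gene lies on chr6:127075797-127101066, minus strand. The RPKM was 30.4 and 29.8 at PND 7, 11.1 and 7.98 at PND 14, 6.57 and 8.43 at PND 17, 4.91 and 3.56 at PND 21, and 2.18 and 3.15 at PND 28. Both PND 7 mice lay far above all others, and the mice of PND 14 and 17 overlapped. Ccnd2 fell by 1.76 ± 0.26 on the log2 scale from PND 7 to PND 14 (edgeR adjusted p = 7.84e-04) and by 3.19 ± 0.28 from PND 7 to PND 28 (4.42e-06), and both calls held without any single mouse. From PND 7 to PND 14, the largest of these steps, edgeR called 0 of 7 spermatogonial markers (median log2 fold change -0.20) and 0 of 7 Sertoli markers (-0.66). Over all genes only 5.43% were called lower in this step, so lists of 7 say little. DESeq2 called 0 of either, with 0 and 2 at an unadjusted p under 0.05. Without PND 14 mouse 1 edgeR called 0 and 1. The medians were then -0.11 for the spermatogonial and -1.14 for the Sertoli markers. The Sertoli markers summed to 1740 CPM in PND 14 mouse 1 and to 913.8 in PND 14 mouse 2. From PND 7 to PND 28, all 7 Sertoli markers in the files and 6 of 7 spermatogonial markers were called lower, beside 23.4% of all genes. Their part in the fall of Ccnd2 was not tested.

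Cyclin D1 (Ccnd1) had 10.4 and 12.7 RPKM at PND 7, 11.3 and 10.9 at PND 14, 9.51 and 8.44 at PND 17, 4.08 and 3.99 at PND 21, and 2.69 and 3.50 at PND 28. Its PND 14 mice lay within the range of the PND 7 mice, and its mice of PND 21 and 28 all lay below the younger ones. Ccnd1 fell by 1.58 ± 0.25 on the log2 scale over the series (edgeR adjusted p = 2.85e-04). The fall from PND 17 to PND 21 (log2 fold change -1.03 ± 0.25, adjusted p = 0.0243) was lost without PND 17 mouse 1 (0.150) or mouse 2 (0.127), and without PND 21 mouse 1 (0.159) or mouse 2 (0.0563). Exons of Oraov1 on the opposite strand cover 21.3% of its exons.

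Cyclin D3 (Ccnd3), the third D-type cyclin, had 7.16 and 6.60 RPKM at PND 7, 5.10 and 2.17 at PND 14, 2.73 and 2.85 at PND 17, 2.46 and 4.83 at PND 21, and 15.3 and 9.11 at PND 28. Both PND 28 mice lay above all others, with the next highest at PND 7. Its log2 fold change was 1.92 ± 0.47 from PND 21 to PND 28 (edgeR adjusted p = 0.0297) and 1.14 ± 0.45 from PND 7 to PND 28 (0.0437). Neither was firm, since without PND 28 mouse 1 they were 1.47 (adjusted p = 0.276) and 0.71 (0.312), and both calls were also lost without either PND 17 mouse (0.0525 to 0.0611) and with library totals. The first was further lost without PND 21 mouse 1 (0.195), PND 21 mouse 2 (log2 fold change 2.63, adjusted p = 0.0600) or PND 28 mouse 2 (0.0530), and the second without PND 7 mouse 1 (0.0799) or mouse 2 (0.124). Near copies cover 86.7% of the Ccnd3 transcript at up to 96.4% identity, and exons of Bysl on the opposite strand cover 15.7% of its exons. Within mice, Ccnd2 exceeded Ccnd3 in 7 of 10, and Ccnd3 was the higher in PND 21 mouse 2 and both PND 28 mice.

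The E-type cyclins start DNA replication with Cdk2. Ccne2 had 13.6 and 14.9 RPKM at PND 7, 23.9 and 32.1 at PND 14, 30.7 and 28.2 at PND 17, 24.3 and 29.5 at PND 21, and 15.5 and 22.5 at PND 28. It passed the F test over all ages (edgeR adjusted p = 0.0357), and its log2 fold change of 0.88 ± 0.27 from PND 7 to PND 14 (adjusted p = 0.0373) was under the 2-fold limit. Exons of Ints8 on the opposite strand cover 17.4% of its exons. Ccne1 lay between 0.520 and 7.02 RPKM, both PND 7 mice lying far apart at 3.33 and 0.520, and passed no test. Ccne2 exceeded Ccne1 in all 10 mice.

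Read as shares of the summed RPKM of the 24 cyclins, Ccna1 and Ccnb2 together made up 4.65% and 4.24% at PND 7, 15.0% and 20.0% at PND 14, 22.6% and 18.1% at PND 17, 34.7% and 41.3% at PND 21, and 56.1% and 49.4% at PND 28. The D-type cyclins went from 15.6% and 16.8% at PND 7 to 4.49% and 3.66% at PND 28. The sum itself was 307.7 and 292.7 RPKM at PND 7 and 448.9 and 430.7 at PND 28. These shares and the ranks that follow depend on the length used, since RPKM divides by all annotated exons. For Ccna1 and Ccnb2 the exon bases equal the longest transcript (1566 and 1541). Ccnl1 has 5997 exon bases and a longest transcript of 2364, so its RPKM is lowered by comparison. At PND 7 the most abundant cyclins per length were Ccnl2, Ccnd2, Ccnl1, Ccng1 and Ccna2 (mean RPKM 40.2 to 21.1), and at PND 28 they were Ccnb2, Ccna1, Ccnk, Ccni and Ccny (136 to 21.7).

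**Figure D3:**
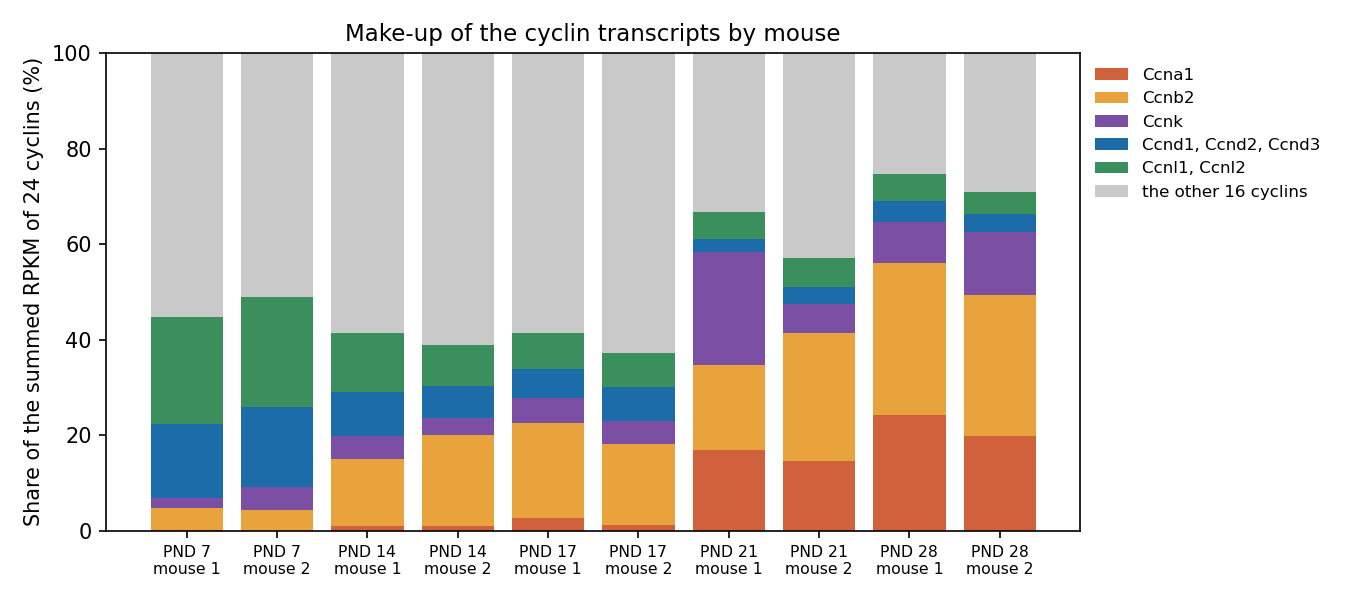
Share of the summed RPKM of 24 cyclins (y axis, percent) taken by 5 groups and by the other 16 cyclins, with 1 bar per mouse in the order of age. Ccna1 takes 0.0374% and 0% at PND 7 and 24.2% and 19.8% at PND 28, and the wide Ccnk band in PND 21 mouse 1 is not matched in PND 21 mouse 2.

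Cdk2 is the partner of the E- and A-type cyclins and also has a role at the ends of meiotic chromosomes. It had the highest mean RPKM of the kinases at every age. At PND 7 that rank depends on the length used. Cdk4 has 3249 exon bases and a longest transcript of 2053, and Cdk16 has 4378 and 3270, beside 2432 by either measure for Cdk2. Its RPKM was 43.6 and 37.6 at PND 7, 89.8 and 92.9 at PND 14, 114 and 91.2 at PND 17, 111 and 90.5 at PND 21, and 61.0 and 44.7 at PND 28. The mice of PND 14, 17 and 21 overlapped, and all lay above those of PND 7 and 28. Cdk2 rose by 1.06 ± 0.23 on the log2 scale from PND 7 to PND 14 (edgeR adjusted p = 0.00890). The size stands at the 2-fold limit, and without PND 7 mouse 2 or PND 14 mouse 2 it was 0.96 in both cases (adjusted p = 0.0695 and 0.0460).

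Cdk1, the kinase of M phase, had 9.98 and 5.65 RPKM at PND 7, 18.2 and 23.0 at PND 14, 21.9 and 22.0 at PND 17, 13.3 and 19.6 at PND 21, and 18.5 and 15.8 at PND 28. Both PND 7 mice lay below all others, which overlapped among themselves. Cdk1 rose by 1.30 ± 0.32 on the log2 scale from PND 7 to PND 14 (edgeR adjusted p = 0.0172) and by 1.46 ± 0.33 from PND 7 to PND 28 (0.00261). The first call was lost without PND 7 mouse 2 (log2 fold change 0.97, adjusted p = 0.111) or PND 14 mouse 2 (1.04, 0.103), and the second held without any single mouse. Cdk2 exceeded Cdk1 in all 10 mice.

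Cdk4, the main kinase of the D-type cyclins, had 31.4 and 29.3 RPKM at PND 7, 31.3 and 33.9 at PND 14, 28.5 and 30.4 at PND 17, 14.1 and 20.7 at PND 21, and 13.8 and 13.0 at PND 28. The 6 mice up to PND 17 lay above the 4 older ones. It passed the F test over all ages (edgeR adjusted p = 0.0280), and its log2 fold change from PND 7 to PND 28, -0.84 ± 0.25 (adjusted p = 0.0134), was under the 2-fold limit. Exons of Tspan31 on the opposite strand cover 18.6% of its exons. Cdk6, the other partner of the D-type cyclins, lay between 1.57 and 4.69 RPKM, below Cdk4 in all 10 mice, and passed no test.

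Cdk5, known for its role in neurons and bound by activators that are not cyclins, had 35.6 and 25.3 RPKM at PND 7, 56.6 and 40.5 at PND 14, 41.8 and 46.9 at PND 17, 18.6 and 22.0 at PND 21, and 16.2 and 11.2 at PND 28. It passed the F test over all ages (edgeR adjusted p = 0.00515). Its log2 fold change from PND 17 to PND 21 was -0.996 ± 0.28 (adjusted p = 0.0447), a fold of 1.99 just under the limit. The mice of PND 21 and 28 lay below all the younger ones.

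Cyclin K (Ccnk) partners Cdk12 and Cdk13, which phosphorylate RNA polymerase II. Its RPKM was 6.75 and 14.1 at PND 7, 14.9 and 11.5 at PND 14, 15.6 and 13.9 at PND 17, 104 and 20.9 at PND 21, and 37.9 and 56.7 at PND 28. PND 21 mouse 1 stood far above its age mate, with 1018 counts beside 316 in a deeper library. All 4 mice of PND 21 and 28 lay above the younger ones. Ccnk rose by 2.53 ± 0.57 on the log2 scale from PND 7 to PND 28 (edgeR adjusted p = 0.00267), and the value lay between 2.14 and 3.07 without any single mouse. The rise from PND 17 to PND 21 (log2 fold change 2.14 ± 0.56, adjusted p = 0.0332) was 0.72 without PND 21 mouse 1 (0.422), while leaving out PND 21 mouse 2 gave 2.85 (0.00580). It was also lost without PND 17 mouse 1 (0.151) or mouse 2 (0.217) and without PND 28 mouse 1 (0.0548) or mouse 2 (0.0530). The reads of PND 21 mouse 1 covered 12 of 15 exons with more than 10 reads and those of mouse 2 covered 11.

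The kinases of cyclin K were called in no comparison of a pair of ages. Cdk13 lay between 15.2 and 28.0 RPKM, passed the F test over all ages (edgeR adjusted p = 0.0280) and had a log2 fold change of 0.76 ± 0.20 from PND 7 to PND 28 (adjusted p = 0.00596), under the 2-fold limit. Cdk12 lay between 6.44 and 14.0 RPKM and passed no test. The log2 ratio of Cdk12 to Cdk13 went from -0.52 and -0.86 at PND 7 to -1.68 and -1.82 at PND 28.

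The L-type cyclins (Ccnl1 and Ccnl2) act in splicing and were among the most abundant cyclins at PND 7. The RPKM of Ccnl2 was 38.1 and 42.2 at PND 7, 22.3 and 16.9 at PND 14, 12.5 and 10.9 at PND 17, 15.3 and 11.5 at PND 21, and 13.3 and 9.88 at PND 28. The RPKM of Ccnl1 was 30.8 and 25.1 at PND 7 and lay between 9.16 and 15.6 in the 8 older mice. Both genes were high in the PND 7 mice alone. By the read counts of the paper, both PND 7 mice also had a larger share of reads on introns than any older mouse. The annotated exons of Ccnl2 and Ccnl1 hold 5278 and 5997 bases, beside 2442 and 2364 in their longest transcripts. Whether intron reads entered the counts of these genes was not tested. From PND 7 to PND 14 the log2 fold change was -1.14 ± 0.23 for Ccnl2 (edgeR adjusted p = 0.00542) and -1.21 ± 0.23 for Ccnl1 (0.00438). From PND 7 to PND 28, Ccnl2 fell by 1.47 ± 0.23 on the log2 scale (2.55e-04), and Ccnl1, at -0.98 ± 0.23 (0.00356), was under the 2-fold limit.

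The T-type cyclins form P-TEFb with Cdk9, the kinase that releases paused RNA polymerase II. The RPKM of Ccnt2 was 15.0 and 12.7 at PND 7, 10.8 and 6.87 at PND 14, 5.99 and 6.25 at PND 17, 6.13 and 4.16 at PND 21, and 2.30 and 2.77 at PND 28. The PND 7 mice were the highest and the PND 28 mice the lowest. Ccnt2 fell by 2.12 ± 0.26 on the log2 scale over the series (edgeR adjusted p = 4.35e-05). Ccnt1 lay between 4.04 and 10.2 RPKM, and its log2 fold change over the series, -0.75 ± 0.25 (0.0211), was under the 2-fold limit. In RPKM their order changed, with Ccnt2 the higher in both PND 7 mice and Ccnt1 in both mice of PND 17, 21 and 28. RPKM divides by all annotated exons, 12345 bases for Ccnt2 and 9157 for Ccnt1, while their longest transcripts have 6738 and 7397. Whether intron reads entered the counts of Ccnt2 was not tested either. In CPM, without division by length, Ccnt2 was the higher in each mouse up to PND 21 and Ccnt1 in each PND 28 mouse. Cdk9 lay between 4.92 and 12.5 RPKM and passed no test, and a near copy covers 93.1% of its transcript.

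**Figure D4:**
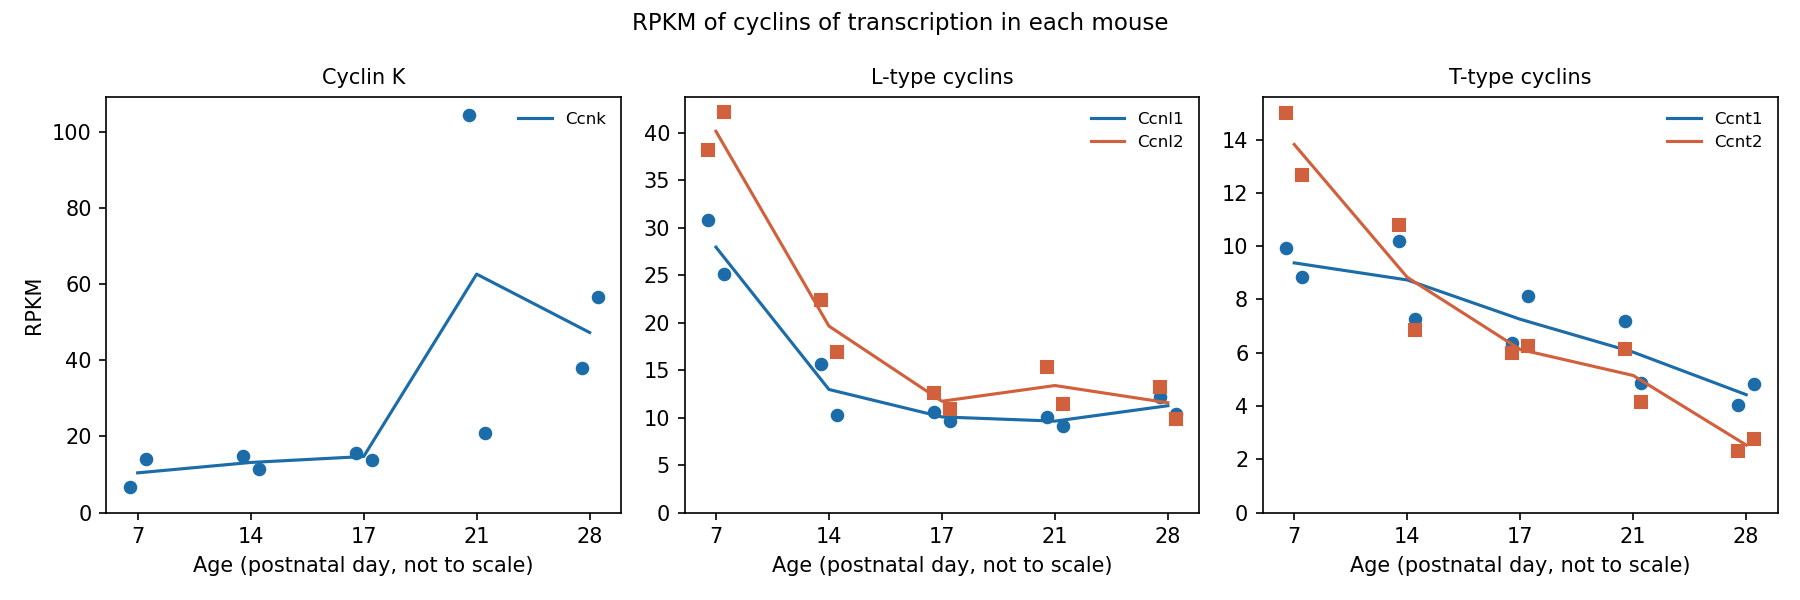
RPKM of cyclin K, the L-type and the T-type cyclins by age in postnatal days, with 1 point per mouse and lines through the mean of 2 mice. The PND 21 mean of Ccnk lies between 104 in mouse 1 and 20.9 in mouse 2. Ccnl1 and Ccnl2 are highest in the PND 7 mice. In RPKM Ccnt2 falls below Ccnt1 at the older ages, but in CPM only at PND 28.

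Cyclin H (Ccnh) and Cdk7 form the CDK-activating kinase, which also belongs to the transcription factor TFIIH. Ccnh lay between 7.28 and 14.6 RPKM and Cdk7 between 4.94 and 8.46, and neither passed a test. A near copy covers 98.0% of the Ccnh transcript. Cyclin C (Ccnc) and its kinases Cdk8 and Cdk19 belong to the Mediator complex. Ccnc lay between 5.12 and 8.81 RPKM and passed no test. Cdk19 had 15.7 and 15.2 RPKM at PND 7, 16.1 and 18.3 at PND 14, 22.8 and 24.3 at PND 17, 26.0 and 23.9 at PND 21, and 27.2 and 26.2 at PND 28. It rose by 1.13 ± 0.20 on the log2 scale over the series (edgeR adjusted p = 6.04e-04), which held without any single mouse and was under the limit with library totals. Cdk8 had a log2 fold change of -0.86 ± 0.27 (0.0172), under the 2-fold limit, and near copies cover 99.9% of its transcript at up to 99.6% identity. The log2 ratio of Cdk19 to Cdk8 was 1.34 and 1.11 at PND 7 and 3.09 and 3.29 at PND 28.

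Cdk20, a kinase linked to cilia, had the largest rise of a kinase. Its RPKM was 2.11 and 4.78 at PND 7, 4.76 and 6.90 at PND 14, 8.50 and 4.90 at PND 17, 20.1 and 12.8 at PND 21, and 19.2 and 16.1 at PND 28. The mice of PND 21 and 28 overlapped and all 4 lay above the younger ones. Cdk20 rose by 2.71 ± 0.44 on the log2 scale over the series (edgeR adjusted p = 3.43e-04), a 6.56-fold difference. The call held without any single mouse, but the size rested on the PND 7 mice, at 3.40 without mouse 2 and 2.24 without mouse 1. From PND 17 to PND 21 it did not pass (adjusted p = 0.0592).

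The kinases Cdk16, Cdk17 and Cdk18 form the PCTAIRE group, and Cdk16 is needed for sperm to mature. Cdk16 had 36.6 and 29.5 RPKM at PND 7, 39.9 and 25.9 at PND 14, 24.8 and 25.3 at PND 17, 14.8 and 14.7 at PND 21, and 17.8 and 14.9 at PND 28. It passed the F test over all ages (edgeR adjusted p = 0.0162), and its log2 fold change over the series was -0.68 ± 0.24 (0.0278), under the 2-fold limit. Cdk17 lay between 4.66 and 10.5 RPKM, with a log2 fold change of 1.00 ± 0.26 over the series (0.00565), a fold of 1.997 just under the limit. Cdk18 was low, at 0 to 1.49 RPKM, with 6 to 29 counts at PND 7 and 28, and passed only the F test over all ages (0.0202). In every mouse Cdk16 was above both.

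Cdk14, a partner of cyclin Y, had 2.13 and 4.01 RPKM at PND 7 and between 1.13 and 1.74 in the 8 older mice. It fell by 1.37 ± 0.31 on the log2 scale from PND 7 to PND 14 (edgeR adjusted p = 0.0107). The call was lost without PND 7 mouse 2 (log2 fold change -0.86, adjusted p = 0.0824) or PND 14 mouse 2 (-1.29, 0.0619). Cyclin Y (Ccny) lay between 18.8 and 30.9 RPKM and Cdk10, a kinase that binds cyclin M, between 5.68 and 12.4, and neither passed a test. A near copy covers 97.5% of the Cdk10 transcript.

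**Figure D5:**
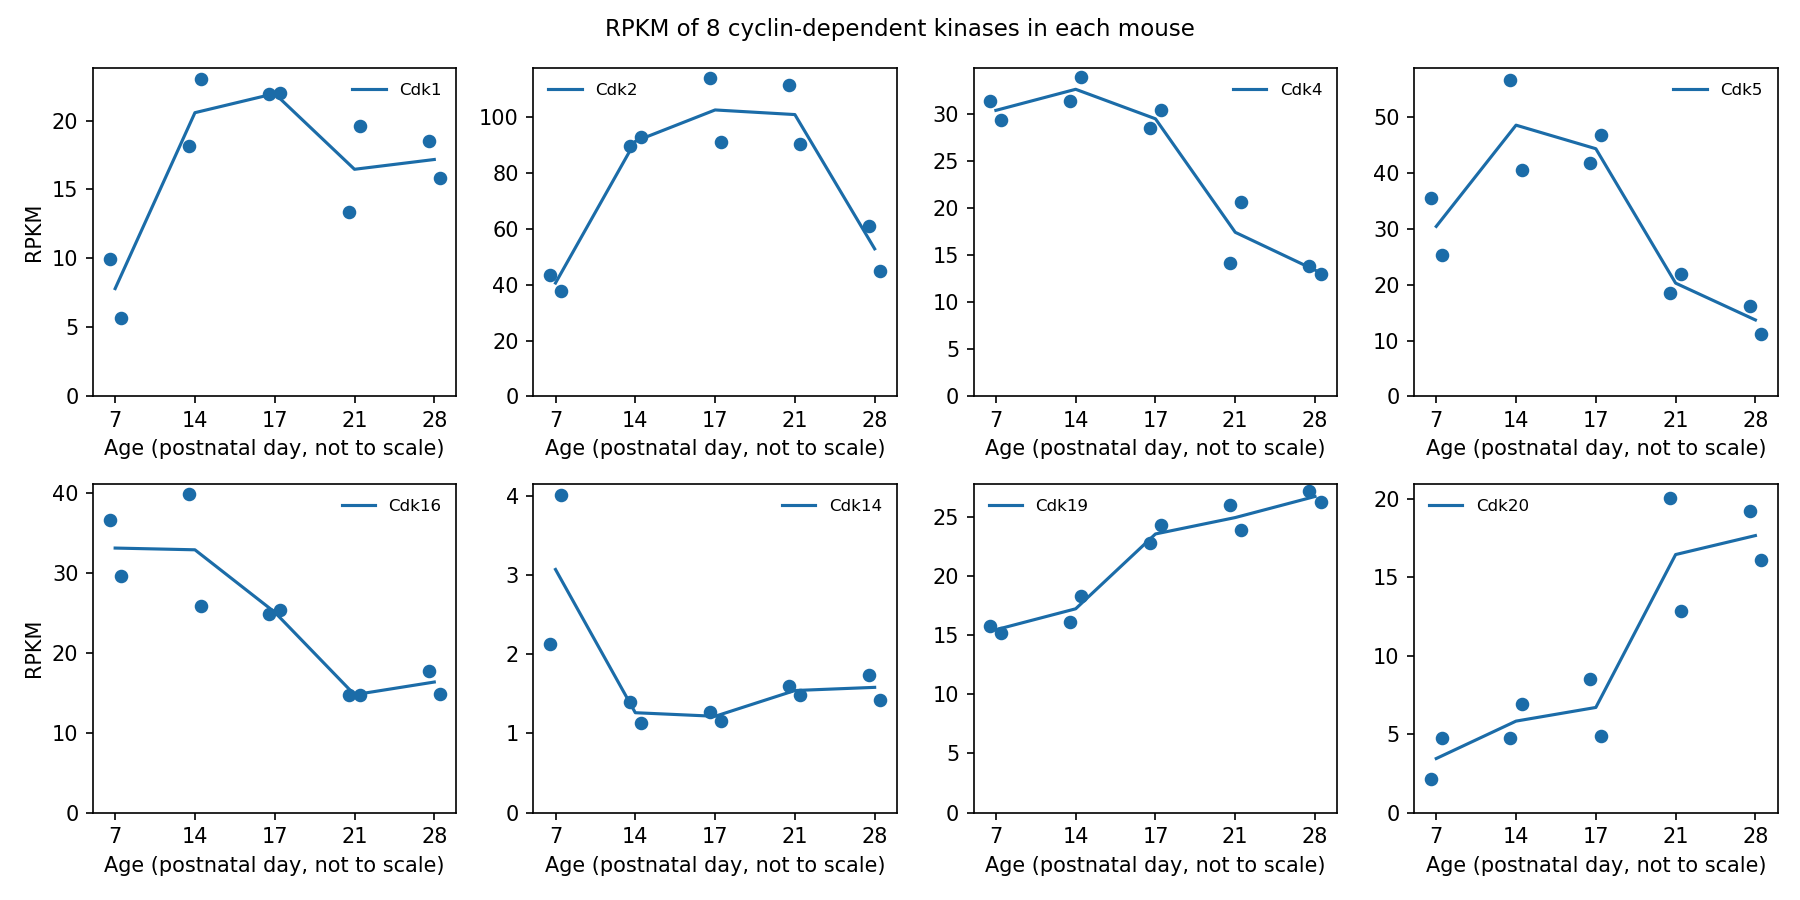
RPKM of 8 kinases by age in postnatal days, each on its own axis from 0, with 1 point per mouse and lines through the mean of 2 mice. Cdk2 is highest at PND 14, 17 and 21, Cdk4, Cdk5 and Cdk16 lie lower at PND 21 and 28 than at PND 7, and Cdk19 and Cdk20 have their highest means at PND 28.

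Cyclin G1 (Ccng1), a target of p53, had 25.9 and 21.2 RPKM at PND 7, 13.1 and 15.9 at PND 14, 13.0 and 12.2 at PND 17, 7.62 and 7.22 at PND 21, and 5.92 and 5.90 at PND 28. It fell by 1.68 ± 0.24 on the log2 scale over the series (edgeR adjusted p = 1.28e-04). Cyclin G2 (Ccng2), linked to cell cycle arrest, had 7.40 and 7.22 RPKM at PND 7 and 3.24 and 2.60 at PND 28. Its log2 fold change was -1.003 ± 0.24 (0.00404), a fold of 2.004 that stood on the limit. It went under 2-fold without PND 7 mouse 1 (1.92), PND 28 mouse 2 (1.78), either PND 17 mouse (1.99) or PND 21 mouse 2 (1.99), with adjusted p between 0.00668 and 0.0492, and under RLE scaling.

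Cyclin I (Ccni), an atypical cyclin of cells that do not divide, had 11.1 and 6.13 RPKM at PND 7 and between 20.9 and 26.2 in the 8 older mice, with no overlap. It rose by 1.40 ± 0.30 on the log2 scale from PND 7 to PND 14 (edgeR adjusted p = 0.00771) and by 1.76 ± 0.30 over the series (4.67e-04), and near copies cover 98.4% of its transcript at up to 97.4% identity. Cyclin J (Ccnj) had 6.51 and 3.23 RPKM at PND 7, 3.69 and 3.17 at PND 14, 2.52 and 2.95 at PND 17, 1.10 and 1.31 at PND 21, and 1.08 and 1.04 at PND 28. It fell by 1.87 ± 0.40 on the log2 scale over the series (0.00198), and its log2 fold change was -1.25 without PND 7 mouse 1 (0.0139), the higher of the PND 7 mice. Cyclin F (Ccnf), a subunit of an SCF ubiquitin ligase, lay between 6.87 and 10.8 RPKM, and Ccno, a cyclin of multiciliated cells, between 0.0650 and 1.21, and neither passed a test. In all, 16 of the 42 genes were called by no test, Cdk15 among them.

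The genes around the cyclins and kinases were counted by lists. Of 8 CDK inhibitors, 7 were tested, and 3 rose and 0 fell from PND 7 to PND 28 (5 called without PND 7 mouse 1), beside 55.6% of all genes called in either direction, 32.2% higher and 23.4% lower. They were Cdkn3, a phosphatase that acts on CDKs (log2 fold change 5.10 ± 0.34, edgeR adjusted p = 7.72e-07), Cdkn2c, an inhibitor of Cdk4 and Cdk6 (3.67 ± 0.39, 1.61e-05), and Cdkn2b (1.58 ± 0.52, 0.0205), whose call was lost without PND 7 mouse 2 (0.0837) or PND 28 mouse 1 (0.217). Cdkn2c had 10.9 and 7.39 CPM at PND 7 and 137 and 98.1 at PND 28. Cdkn1c, an inhibitor of the p57 kind, fell from PND 7 to PND 14 (-1.63 ± 0.39, 0.0137) and rose from PND 21 to PND 28 (1.94 ± 0.44, 0.0198). The first of these calls was lost without PND 14 mouse 1 (0.0600), and the second on leaving out any 1 of the 4 mice of PND 21 and 28 (0.0516 to 0.177). The median of the list from PND 7 to PND 28 was 1.58 beside 0.10 over all genes.

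Of 13 activators, phosphatases and small subunits, 12 were tested, and 3 rose and 4 fell from PND 7 to PND 28 (median 0.18), so that the 7 of 12 called lie near the 55.6% of all genes. Spdya, an activator of Cdk2 in meiosis, rose most, from 6.01 and 8.33 CPM at PND 7 to 281.6 and 249.2 at PND 28 (log2 fold change 5.22 ± 0.39, edgeR adjusted p = 1.66e-06). Cables1 (-3.36 ± 0.43), the phosphatase Cdc25b (-2.76 ± 0.48) and the small subunit Cks1b (-2.04 ± 0.44) fell. Of 13 retinoblastoma and E2F genes, 1 rose and 5 fell (median -0.68), and these 6 of 13 also lie near that share. E2f7 (-2.68 ± 0.78), E2f6 (-2.42 ± 0.35), E2f1 (-2.30 ± 0.46) and E2f2 (-2.06 ± 0.49) had the largest falls. The call of E2f7 was lost without PND 28 mouse 1 (0.0603) or mouse 2 (0.0692), and E2f1 was at -3.15 without PND 28 mouse 1. Rbl2, a relative of the retinoblastoma protein, rose by 1.08 ± 0.26 on the log2 scale.

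Of 23 mitotic kinases, checkpoint proteins and subunits of the anaphase-promoting complex, 22 were tested, and 9 rose and 3 fell from PND 7 to PND 28 (median 0.51), so that the 12 of 22 called are about the share of all genes (55.6%). Aurka, a kinase of the spindle poles, rose from 11.7 and 12.1 CPM to 149.5 and 108.9 (log2 fold change 3.44 ± 0.28, edgeR adjusted p = 3.11e-06). The mitotic kinase Plk1 (2.74 ± 0.34) and Cdc20, an activator of the anaphase-promoting complex (2.47 ± 0.25), also rose, and Fbxo5, an inhibitor of that complex, fell by 2.28 ± 0.37. Of 11 relatives that the symbol rule left out, 7 rose and 2 fell (median 3.74), beside 32.2% and 23.4% of all genes (median 0.10). Cntd1, a cyclin-like protein of meiotic crossing over, rose by 5.92 ± 0.39 on the log2 scale (7.62e-07), and Cdkl3, a CDK-like kinase, by 5.30 ± 0.34 (6.85e-07). Cdkl4 had 0.200 and 0 CPM at PND 7 and 87.2 and 79.2 at PND 28, and Cdkl1 had 0.300 and 0 at PND 7 and 22.6 and 12.7 at PND 28. From PND 7 to PND 14, 4 of 7 inhibitors, 3 of 12 activators, 3 of 13 retinoblastoma and E2F genes, 5 of 22 mitotic genes and 8 of 11 relatives were called, beside 18.9% of all genes. The activators, the retinoblastoma and E2F genes and the mitotic genes lie near that share. Without PND 14 mouse 1 the counts were 3, 2, 1, 6 and 7 in the same order, beside 16.3%. The 3 retinoblastoma and E2F calls were the least firm, with 0 left without PND 7 mouse 2 or PND 14 mouse 2 and 1 without either mouse of PND 17 or 28. The mitotic count was 3 without PND 7 mouse 2 or PND 14 mouse 2, and the activator count was 5 without PND 7 mouse 1. From PND 14 to PND 17 none of these lists held a call by edgeR, as over all genes.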

How the data were processed

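RNA of 10 mouse testes (12 libraries) was depleted of ribosomal RNA and sequenced as 50 bp reads on the SOLiD 4. The authors used LifeScope v2.1 and mm9 for alignment and left out reads that could be placed at more than 10 sites. For every Ensembl gene they deposited a count (unique reads, not normalized), how many exons had more than 10 reads, and an RPKM. Strand use and the counting tool are not given in the sources used here. Barcodes of a PND 7 mouse were summed for counts and averaged for RPKM.

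Counts were tested with edgeR 4.0.16 (TMM, filterByExpr, all 10 mice in a common fit, 5 residual degrees of freedom). p-values were adjusted by Benjamini-Hochberg over all 16860 genes. CPM values use TMM-scaled totals. For 2 mice against 2 the smallest p of an exact two-sided permutation is 0.3333, so calls rest on the spread shared across genes. Counting intervals are exact 95% intervals and cover counting error only. Ratios of paralogs used RPKM plus 0.1. The self-test on simulated data recovered most of the changed genes. It used changes well above the 2-fold limit, genes of higher counts and a common spread. It therefore says nothing about calls near that limit or on few counts. Near copies are alignments of the longest transcript to mm9 with minimap2 2.31 at 90% identity or more over at least 200 bases. GENCODE M1 gave gene names and exons, and its coordinates were equal to those of the files for all 42 genes.

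Alternatives were DESeq2 1.42.0, RLE or library totals, other filters, fits of 4 mice, a block for the mouse number, separate barcodes, limma 3.58.1 on log2 RPKM, other thresholds, no small RNA or mitochondrial genes, and leaving out each mouse. Python 3.11.15, pandas 2.3.3 and R 4.3.3 were used.

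The genes, lists and tests were chosen with earlier results of these data known. Every gene of the symbol rule is accounted for. Values are given for those called in any of the 5 comparisons and for pairs of paralogs, and in the other lists for up to 4 called genes per comparison by fold change. Isoforms and protein sequences were not analysed here.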

Additional observations from a re-analysis of the deposited data

How the results depend on the processing

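For the 30 fold changes of called genes, 630 alternative values were computed, and 557 kept their direction and their side of the thresholds, 73 lost the call and 0 reversed. Leaving out each mouse in turn gave 6 to 11 calls for PND 14 against PND 7, 0 in each fit for PND 17 against PND 14, 1 to 5 for PND 21 against PND 17, 0 to 1 for PND 28 against PND 21, 15 to 18 for PND 28 against PND 7 and 21 to 26 over all ages. Limma on log2(RPKM + 0.1) gave 5 calls for PND 14 against PND 7, 1 for PND 21 against PND 17 and 0 for PND 28 against PND 21. Limma under the criteria of the study gave 2 for PND 21 against PND 17 and 0 for PND 28 against PND 21. Library totals gave 0 calls for PND 28 against PND 21 in place of 1. With no fold limit, PND 28 against PND 7 had 26 calls in place of 16, with 12 higher and 14 lower. Without a filter on low counts, PND 21 against PND 17 had 6 calls. The change in the log2 ratio of Ccna1 to Ccna2 from PND 7 to PND 28 was 9.77 on CPM plus 0.5 and 8.23 with 1 RPKM added, against 11.2, and 10.7 to 11.8 without single mice. The cause of these shifts was not tested.

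Whether the mouse numbers 1 and 2 pair mice across ages is not given in the sources used here. The correlation of same-numbered deviations lay between -0.208 and 0.368, with a median of -0.019 over 10 pairs of ages and 2 pairs above 0.1. This check cannot settle whether some ages share a pairing. With the mouse number as a replicate block, the counts were 9, 0, 3, 0 and 16 in the order of the comparisons and 26 over all ages. Ccnk (PND 21 against PND 17) and both calls of Ccnd3 lost their call.

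Depth limits Cdk15, Cdk18 and Ccno most, and small differences are hardest to see in PND 17 mouse 2 (3994026 counts) and PND 21 mouse 1 (4018007). Counts of genes with near copies or with exons on the opposite strand remain uncertain.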
